A study of Mus musculus with 6 samples.

Results

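The genes described here encode subunits of the mitochondrial oxidative phosphorylation system, in dorsal pancreas of mouse embryos at E13.5 with and without Bicc1. Members were taken by symbol: nuclear genes of the Nduf (a, b, c, s and v), Sdh, Uqcr and Cox4 to Cox8 families, and the protein-coding genes of mitochondrial DNA. The rule found 80 of the 24389 genes in the deposited files, 67 nuclear and 13 mitochondrially coded. By complex, the nuclear members were 36 genes of complex I, 4 of complex II, 10 of complex III and 17 of complex IV. The mitochondrially coded members were 7 of complex I, 1 of complex III, 3 of complex IV and 2 of the ATP synthase. Among the nuclear members, 3 are annotated as processed pseudogenes (Cox6c2, Uqcrh-ps1 and Uqcrh-ps2). Ndufa4 is counted here with complex I by its name, although it is now regarded as a subunit of complex IV.

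RNA sequencing was done on 3 Bicc1 knockout (KO) and 3 wild-type (WT) libraries of dorsal pancreas, all from embryos of a mixed C57BL/6 and ICR background. The comparison asks how the loss of Bicc1, which encodes the RNA-binding protein Bicaudal C1, alters the mRNA profile. Neither the knockout allele nor whether a library holds 1 embryo or a pool is described in the labels, so the p-values reflect how these libraries vary, which may be technical variation. Each library gives 1 value per gene in a unit that the files do not state. The depth is unknown, and the values of separate genes need not share a scale.

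Oxidative phosphorylation makes most of the ATP of a respiring cell. Complex I (NADH dehydrogenase) and complex II (succinate dehydrogenase) pass electrons to ubiquinone, complex III (cytochrome bc1) passes them to cytochrome c, and complex IV (cytochrome c oxidase) passes them to oxygen. Complexes I, III and IV pump protons, and the ATP synthase uses the resulting gradient. Mitochondrial DNA codes for between 1 and 7 membrane subunits of each complex except complex II. The nucleus codes for all other subunits, so that assembly needs the products of both genomes. In the adult pancreas, mitochondrial ATP also couples glucose to insulin release in beta cells.

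The Bicc1 values of KO 1, KO 2 and KO 3 were 3.96, 4.91 and 4.48, against WT values of 19.7, 19.5 and 18.2, and values are listed in this order of libraries throughout. Measured as log2(value + 1), Bicc1 fell by 1.89 (SE 0.087, adjusted p = 0.000674 in limma with Benjamini-Hochberg adjustment). Markers of the labelled tissue were present in all 6 libraries, for example Cpa1, an early acinar gene, at 193 to 304. The summed level of 3 endothelial markers was 71.8 to 91.4 in KO and 62.7 to 64.1 in WT. Of these, Kdr overlapped, at 9.73 to 13.58 in KO and 9.58 to 10.45 in WT. The summed level of 4 striated muscle markers was 1.37 to 3.31 in KO and 0.444 to 1.01 in WT. Most of the muscle sum was Actc1, which heart and embryonic muscle use, at 1.21, 1.55 and 2.93 in KO and 0.373, 0.488 and 0.943 in WT. The sums of the other marker sets overlapped between KO and WT. Single genes of those sets stood apart either way, such as Neurog3, lower in all KO libraries, and Pdgfrb, higher in all KO libraries. In these bulk samples, fewer cells of a type and less RNA per cell cannot be told apart. The first principal component of all genes tested held 57.3% of the variance and set KO 1, KO 2 and WT 3 against KO 3, WT 1 and WT 2. These are called set A and set B, and the difference between KO and WT is also given within each set, which has no test.

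Of the 80 members, 76 averaged at least 1 across the 6 libraries and were tested, 63 nuclear and all 13 mitochondrially coded. None passed limma at an adjusted p of 0.05 in either direction, and their adjusted p ranged from 0.469 to 0.991. Over all 13911 genes tested, 0 (0%) were called higher and 2 (0.0144%) lower in KO. At an unadjusted p of 0.05, 1 member was higher (Ndufv3) and 3 were lower in KO (Uqcrb, Ndufb6 and Cox5a), where 5.89% and 4.36% of all genes tested were. The median log2 change of the 63 nuclear members was -0.0077, against 0.014 for all genes tested. That of the 13 mitochondrially coded members was -0.096. Of these 13, 12 had a lower mean log2 value in KO, as did 6463 of all 13911 genes tested.

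The direction of the nuclear median was not stable. It was 0.0066 without KO 2, 0.034 without KO 3, 0.015 without WT 1 and 0.034 without WT 3, and it was -0.036 without KO 1 and -0.066 without WT 2. It was -0.053 within set A, and -0.020 within set B. The spread between replicates of the libraries' own median deviation was 0.10 (pooled SD, log2 scale, n = 3 per group), larger than any of these medians. For the mitochondrially coded members the corresponding spread was 0.15, larger than their median of -0.096 with all libraries. Their median was -0.14 within set A and -0.17 within set B. It was -0.20 without KO 1, -0.16 without WT 1, -0.087 without WT 2, -0.057 without WT 3 and -0.042 without either KO 2 or KO 3. After correction for GC content its direction changed, to 0.010.

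**Figure D1:**
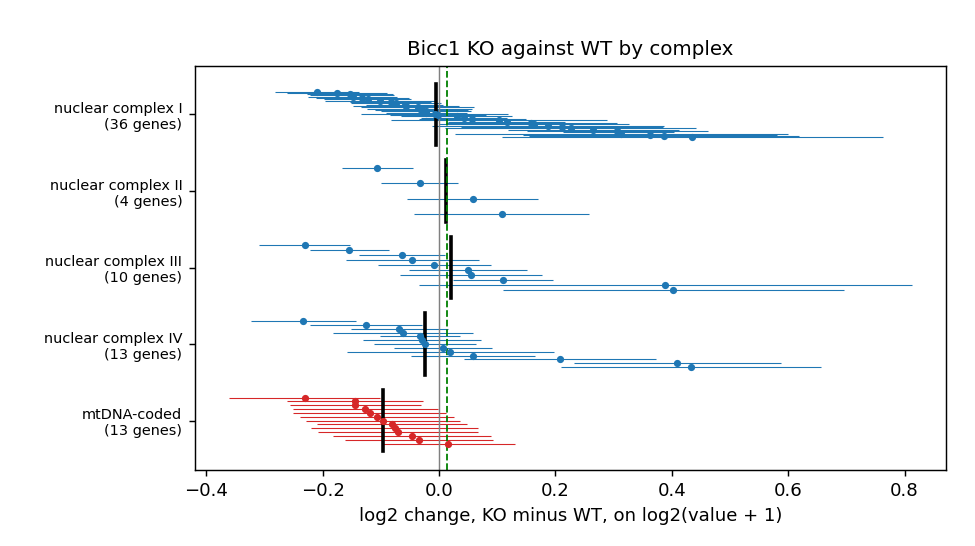
Log2 change of each tested member, KO minus WT on the log2(value + 1) scale, by complex (points with bars of 1 SE from limma, 3 libraries per group; black bars, median of each group; dashed green line, median of all 13911 genes tested). Members of nuclear complexes lie on either side of 0. Their medians, with pseudogenes included, are -0.0051 in complex I, 0.012 in complex II, 0.020 in complex III and -0.024 in complex IV. Of the 13 mitochondrially coded members, 12 lie below 0.

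In 1 tested nuclear member, Ndufv3, the lowest KO value exceeded the highest WT value, and in 8 of 63 (12.7%) the groups stood apart the other way: Ndufv2, Ndufb6, Ndufa5, Ndufb5, Sdhd, Uqcrb, Uqcrc2 and Cox5a. Over all genes tested, the shares were 7.67% above and 8.77% below. In none of the 13 mitochondrially coded members were the groups apart. The arrangement of libraries that the first principal component gave was more frequent among the nuclear members than the arrangement by genotype. KO 1, KO 2 and WT 3 all lay above the other 3 libraries in 27 of 63 nuclear members (42.9%), where this held for 19.4% of all genes tested. They all lay below them in 1 nuclear member, Ndufs1 (1.59%), where 15.2% of all genes tested did. These counts describe the libraries and carry no test, since the component was computed from the same values.

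**Figure D2:**
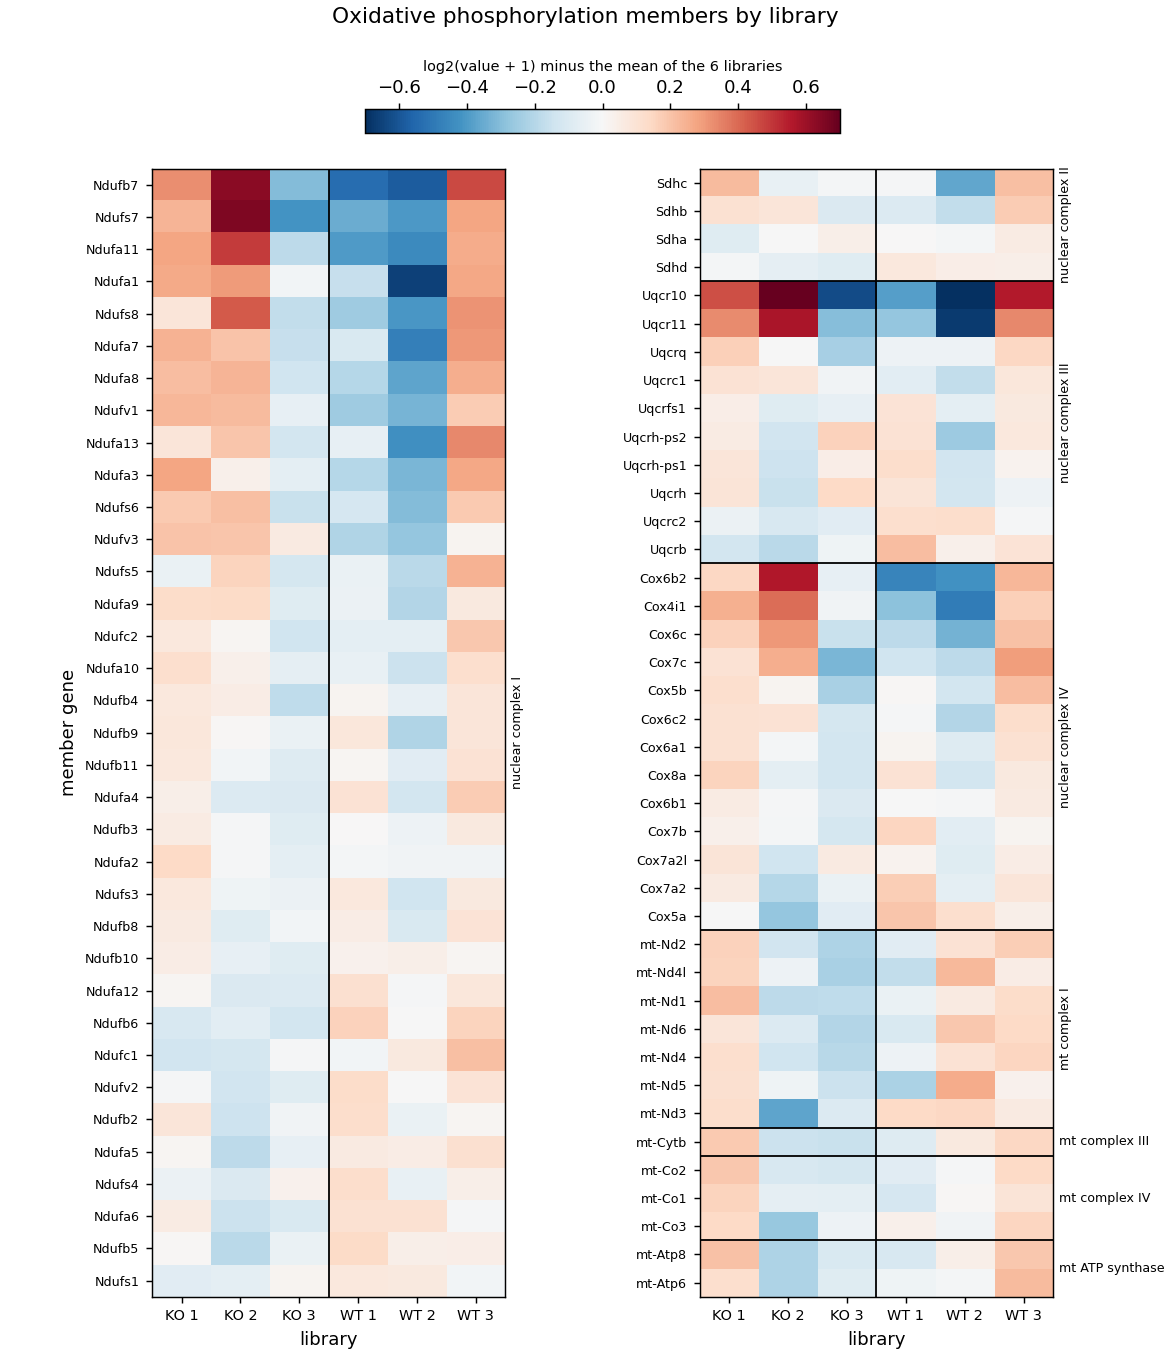
Heat map of the tested members (rows; 1 is not drawn) in the 6 libraries (columns), as log2(value + 1) minus the gene's mean over the libraries (red, above; blue, below; members beyond ±0.7 are drawn at the ends of the scale). Rows are grouped by complex and coding genome and sorted by the difference between KO 1, KO 2, WT 3 and the other libraries, so that members such as Ndufb7, Ndufs7, Uqcr10 and Cox6b2 stand at the top of their blocks with red in KO 1, KO 2 and WT 3.

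Complex I has a peripheral arm, which takes electrons from NADH through a flavin and a chain of iron-sulfur clusters, and a membrane arm, which pumps protons. The nuclear core subunits sit in the peripheral arm. Ndufv1, the subunit that binds the flavin, was 33.1, 32.7 and 26.8 in KO and 23.4, 22.1 and 31.8 in WT. Its groups overlap through WT 3, which lay with KO 1 and KO 2, with a log2 change of 0.27 (SE 0.15, adjusted p 0.484 in limma) that was 0.083 after correction for GC content.

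Ndufs7, which carries the last iron-sulfur cluster before ubiquinone, was 3.59, 5.11 and 1.91 in KO and 2.06, 1.95 and 3.72 in WT. Ndufs8, which carries the clusters just before it, was 3.78, 5.08 and 3.00 in KO and 2.81, 2.40 and 4.61 in WT. In these genes the higher libraries were KO 1, KO 2 and WT 3, and within set B the log2 difference was -0.046 for Ndufs7 and 0.15 for Ndufs8. Ndufs1, Ndufs3 and Ndufv2 varied less. Ndufs1, the largest iron-sulfur subunit, was 12.4, 12.5 and 13.3 in KO and 13.9, 13.8 and 12.9 in WT. Ndufs3 was 26.6 ± 1.24 in KO and 26.7 ± 2.28 in WT (SD, 3 libraries per group), with overlapping groups. Its log2 change was -0.0024, and -0.12 after GC correction. Ndufv2 was 17.4, 15.8 and 16.5 in KO and 19.2, 17.5 and 18.8 in WT, so that the KO values were all lower, by a small margin between KO 1 and WT 2, and its log2 change of -0.15 (SE 0.072, adjusted p 0.473) was -0.068 after GC correction.

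Among the accessory subunits, which surround the core and are needed for assembly or stability, Ndufv3 had the lowest unadjusted p of all members. It was 11.9, 11.9 and 10.8 in KO and 8.72, 8.32 and 10.4 in WT. The KO libraries were all higher, with KO 3 just above WT 3, and the KO mean was 126% of the WT mean. The log2 change was 0.31 (SE 0.095, unadjusted p 0.013, adjusted p 0.469 in limma), 0.18 within set A, and 0.30 within set B. Over the alternatives its adjusted p ranged from 0.132 to 0.908. Ndufb6, of the membrane arm, was 17.2, 17.7 and 17.0 in KO and 21.0, 18.6 and 20.8 in WT. All KO libraries were lower, and the log2 change of -0.21 (SE 0.073, unadjusted p 0.022, adjusted p 0.469) was -0.25 and -0.21 within sets A and B and -0.22 after correction for GC content.

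Ndufa5, an accessory subunit of the peripheral arm, was 20.1, 17.4 and 19.0 in KO and 20.8, 20.7 and 21.5 in WT, with KO 1 close below the WT values (log2 change -0.15, SE 0.074, adjusted p 0.473). After correction for GC content its log2 change was -0.19. The largest difference in complex I between KO 1, KO 2, WT 3 and the other libraries, 0.95 on the log2 scale, was in Ndufb7, a gene of the membrane arm. Ndufb7 was 3.07, 4.04 and 1.63 in KO and 1.25, 1.17 and 3.47 in WT. Ndufa11, also of the membrane arm, was 2.21, 2.70 and 1.33 in KO and 1.01, 0.939 and 2.17 in WT. In both, WT 3 lay above KO 3. Ndufb7, Ndufa11 and Uqcrh, given with complex III, were chosen for description after their values were seen. Ndufa4 was 63.7 ± 3.58 in KO and 68.6 ± 7.44 in WT (SD, 3 libraries per group), with overlapping groups.

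**Figure D3:**
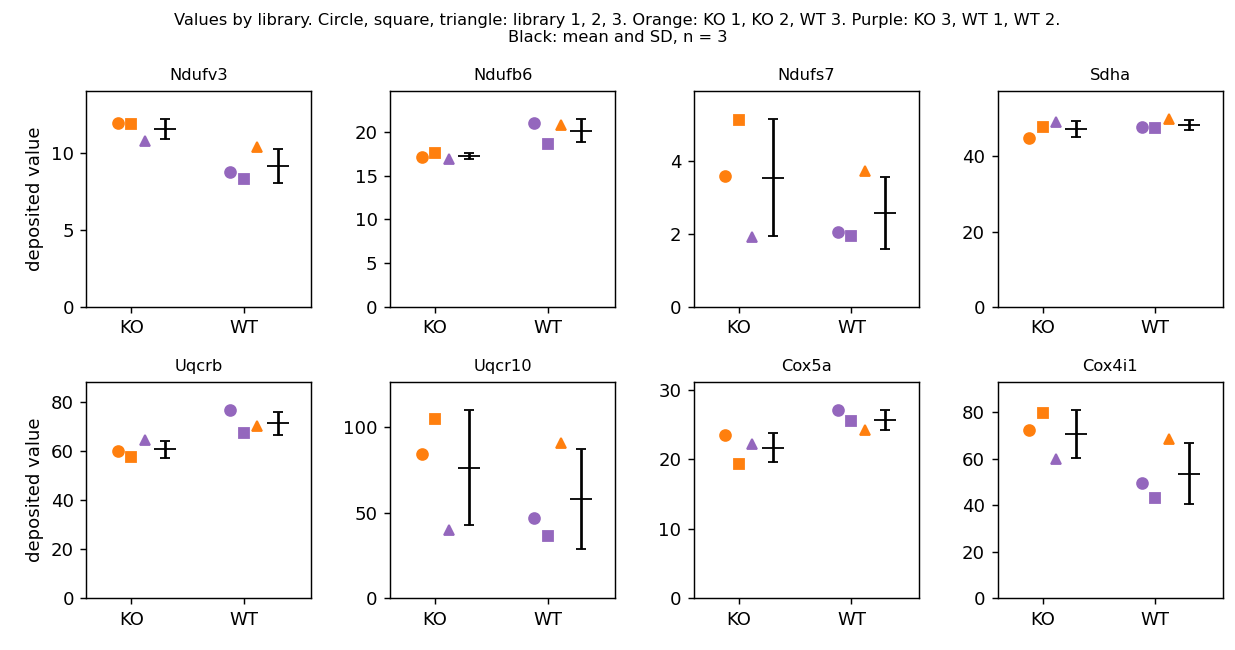
Deposited value by library for 8 members (y axis from 0, unit not stated; black, mean and SD of 3 libraries; marker shape, library number; orange, KO 1, KO 2 and WT 3; purple, KO 3, WT 1 and WT 2). In Ndufv3 all KO libraries lie above the WT libraries, in Ndufb6, Uqcrb and Cox5a below them, in Ndufs7 and Uqcr10 the orange libraries lie above the purple ones in each group, in Cox4i1 the groups overlap through WT 3, and in Sdha the values differ little.

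Complex II is coded by the nucleus alone, and as succinate dehydrogenase it also serves the citric acid cycle. Sdha, the flavoprotein that oxidises succinate, was 45.0, 47.7 and 49.2 in KO and 47.9, 47.5 and 49.9 in WT. KO and WT overlap, with KO 1 the lowest and WT 3 the highest library (log2 change -0.034, SE 0.066, adjusted p 0.828). The iron-sulfur subunit Sdhb was 9.21, 9.08 and 7.85 in KO and 7.90, 7.43 and 9.77 in WT, with KO 1, KO 2 and WT 3 above the others. The membrane anchor Sdhc was 24.8, 20.4 and 20.9 in KO and 20.9, 16.2 and 24.6 in WT, with WT 2 as the lowest library. The other anchor, Sdhd, was 75.3, 72.8 and 71.7 in KO and 80.0, 78.5 and 78.2 in WT. The KO values of Sdhd were all under the WT range, at 92.9% of its mean, with a log2 change of -0.11 (SE 0.060, adjusted p 0.485 in limma). After correction for GC content the log2 change of Sdhd was -0.13.

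In complex III, 5 of 10 nuclear members had a higher and 5 a lower mean log2 value in KO. Without the pseudogenes these were 4 and 4 of 8, with a median log2 change of 0.0016. Uqcrb, a small subunit near the ubiquinone site, was 60.0, 57.7 and 64.4 in KO and 76.6, 67.4 and 70.4 in WT. Every KO library was lower, at 85.0% of the WT mean, with a log2 change of -0.23 (SE 0.078, unadjusted p 0.019, adjusted p 0.469 in limma) that was -0.25 within set A, -0.15 within set B and -0.14 after correction for GC content. The core protein Uqcrc2 was 41.7, 39.5 and 40.5 in KO and 46.6, 46.8 and 42.6 in WT, with KO 1 close to WT 3. Its log2 change was -0.15 (SE 0.068, adjusted p 0.469), and -0.095 after GC correction, while its partner Uqcrc1 was 17.2, 17.0 and 15.7 in KO and 15.1, 14.1 and 16.9 in WT, with overlapping groups and a log2 change of 0.11 (SE 0.086), 0.013 after GC correction. The Rieske iron-sulfur protein Uqcrfs1 was 61.4 ± 2.98 in KO and 64.3 ± 3.82 in WT (SD, 3 libraries per group), also overlapping.

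The small subunits Uqcr10 and Uqcr11 had the widest spread between libraries in complex III. Uqcr10 was 84.4, 105.0 and 39.5 in KO and 46.8, 36.1 and 91.0 in WT. KO 1, KO 2 and WT 3 were high and KO 3, WT 1 and WT 2 low, a mean log2 difference of 1.18, whereas the difference between KO and WT was 0.39 (SE 0.42, adjusted p 0.681). With the set (A or B) as a term in the fit, the log2 change of Uqcr10 was -0.0039. Uqcr11 was 14.8, 17.6 and 9.21 in KO and 9.40, 6.87 and 14.9 in WT, in the same arrangement. The pseudogenes Uqcrh-ps1 and Uqcrh-ps2 match 92.9% and 94.8% of aligned bases of Uqcrh, so reads may be shared and all 3 values are uncertain. In Uqcrh, the hinge protein that helps cytochrome c to bind, KO 3 (157) was the highest and KO 2 (128) the lowest library, and the WT values of 152, 130 and 139 lay between them.

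Cytochrome c oxidase has pairs of subunit isoforms that are used in different tissues. The widely used isoform Cox4i1 was 72.3, 80.0 and 59.8 in KO and 49.5, 42.9 and 68.4 in WT. The mean in KO was 132% of that in WT, but WT 3 lay above KO 3, and the log2 change of 0.41 (SE 0.18, adjusted p 0.469) was 0.15 within set A, 0.37 within set B and 0.20 after correction for GC content. Its counterpart Cox4i2, best known from lung and from low oxygen, was between 0.601 and 1.16 in all libraries and its mean was below the limit for testing. Cox5a, a nuclear subunit that contacts Cox4, was 23.5, 19.4 and 22.3 in KO and 27.1, 25.6 and 24.2 in WT. All KO values were lower, at 84.7% of the WT mean (log2 change -0.23, SE 0.090, unadjusted p 0.033, adjusted p 0.469), and the log2 change after correction for GC content was -0.15.

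The other isoform groups showed the widely used form at a clear level and the form of muscle or testis near the floor of 0.01 or low. Cox6a1 was 103 ± 8.53 in KO and 105 ± 7.19 in WT (SD, 3 libraries per group), and the heart and skeletal muscle form Cox6a2 was between 0.010 and 0.063. The log2 change of Cox6a1 was -0.024, and after correction for GC content it was -0.32 (adjusted p 0.576 in limma). Cox7a2 was 22.7 ± 2.14 and 24.9 ± 2.16, with a log2 change of -0.13 that was -0.20 after GC correction. The muscle form Cox7a1 was 0.215, 0.321 and 0.244 in KO and 0.196, 0.212 and 0.167 in WT. The KO values of Cox7a1 were all above the WT range by a small margin, at a level below the limit for testing. The striated muscle markers were also higher in KO in sum, mostly through Actc1. Myh3, at a low level, was 0.092, 0.126 and 0.340 in KO and 0.051, 0.046 and 0.044 in WT. Ckm at 0.010 to 0.031 and Tnnt3 at 0.010 to 0.054 were at or near the floor. The part of these muscle markers in the Cox7a1 values was not tested.

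Cox6b1 was 51.7 ± 2.90 in KO and 52.9 ± 1.45 in WT (SD, 3 libraries per group). Its testis-type counterpart Cox6b2 was 1.35, 2.13 and 1.04 in KO and 0.543, 0.586 and 1.50 in WT. WT 3 again lay among the KO values, and the log2 change was 0.43 (SE 0.22, adjusted p 0.478), 0.27 after GC correction. Cox7b was 56.2 ± 3.21 and 59.0 ± 4.73, whereas Cox7b2 was between 0.033 and 0.107. Cox7a2l, which helps to join complexes III and IV into supercomplexes, was 99.9 ± 8.56 and 99.3 ± 5.04, and Cox8a was 150 ± 16.1 and 153 ± 12.9. In Cox7b, Cox7a2l and Cox8a the groups overlapped and the adjusted p in limma was between 0.714 and 0.975. The log2 change of Cox8a was -0.029, and after correction for GC content it was -0.25 (adjusted p 0.610 in limma). For Cox6c the values were 16.2 ± 2.73 and 14.0 ± 2.96, and its pseudogene Cox6c2, identical at 224 of 231 bases, was 80.2 ± 7.29 and 77.1 ± 8.75, so their values are uncertain. Cox8b and Cox8c were not analysed here.

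Mitochondrial DNA is transcribed into long precursors that are cut into single mRNAs, so the mRNAs share their promoters. The sum of the 13 mitochondrially coded members was 60276, 48061 and 50020 in KO, against 51893, 55443 and 59802 in WT. This was between 6.89% and 8.42% of the sum of all values of a library. Since the values of separate genes need not share a scale, these percentages need not be shares of the RNA or reads. KO 1 and WT 3 were high, and KO 2 and KO 3 were the lowest, so the groups overlap (7.52% ± 0.797 in KO and 8.01% ± 0.486 in WT, SD, 3 libraries per group). The members moved largely together. The highest value was in KO 1 for 5 members, in WT 3 for 4 and in WT 2 for 4, and the lowest was in KO 2 for 5, in KO 3 for 6 and in WT 1 for 2. This differs from the arrangement of the nuclear members, in which WT 2 was the lowest library for 28 of 63, while it was lowest for 0 of the 13 mitochondrially coded ones. Nuclear copies of mitochondrial DNA, and the overlaps of mt-Atp8 with mt-Atp6 and of mt-Nd4l with mt-Nd4, make single values uncertain, and strand is not kept by this library kit, so mt-Nd6, which is coded on the other strand, can include reads from antisense RNA.

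**Figure D4:**
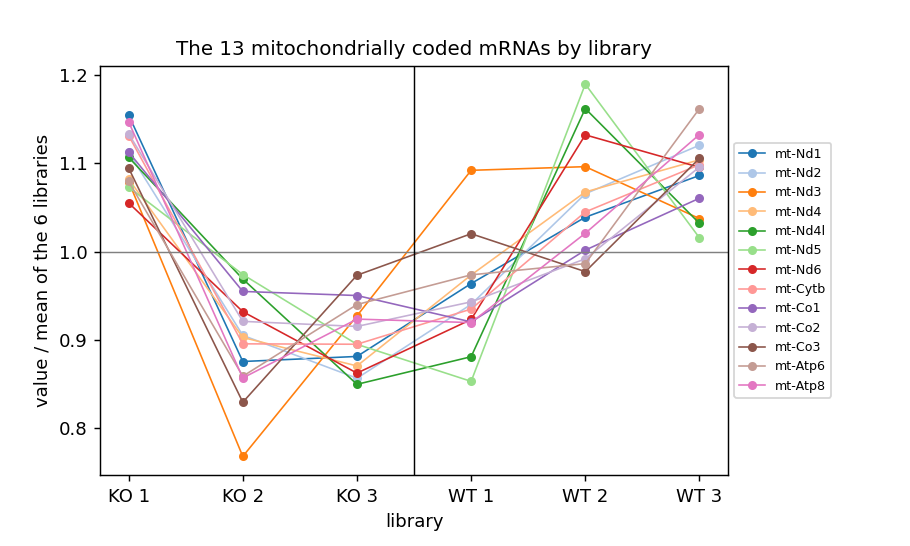
Value of each of the 13 mitochondrially coded mRNAs in each library, divided by its mean over the 6 libraries (y axis; lines only join the points of 1 gene). Values in KO 1 and WT 3 lie above 1 for all 13 genes, values in KO 2 and KO 3 lie below 1, and WT 1 and WT 2 differ by gene.

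The mt-Nd genes code for the proton-pumping core of complex I. Of these 7, mt-Nd3 had the largest difference, with 1979, 1407 and 1699 in KO and 2002, 2010 and 1902 in WT. KO 1 lay within the WT values and KO 2 and KO 3 lay below them, with a log2 change of -0.23 (SE 0.13, adjusted p 0.485). The mt-Nd1 values were 3982, 3018 and 3038 in KO and 3323, 3583 and 3746 in WT. Those of mt-Nd2 were 1862, 1514 and 1432 in KO and 1573, 1783 and 1875 in WT, and those of mt-Nd4 were 2637, 2199 and 2120 in KO and 2372, 2601 and 2690 in WT. In these 3 genes KO 1 lay within or above the WT libraries and KO 2 and KO 3 lay below all WT libraries.

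In mt-Nd4l and mt-Nd5, WT 2 was the highest library and WT 1 among the lowest. The mt-Nd5 values were 1283, 1165 and 1070 in KO and 1020, 1423 and 1215 in WT, and those of mt-Nd4l were 1507, 1319 and 1156 in KO and 1199, 1583 and 1405 in WT. For mt-Nd6 the values were 1475, 1303 and 1205 in KO and 1290, 1583 and 1532 in WT. The cytochrome b gene mt-Cytb, the catalytic core of complex III, was 4964, 3927 and 3925 in KO and 4100, 4584 and 4819 in WT, and its groups overlapped.

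The 3 mitochondrially coded core subunits of complex IV hold or support its copper and haem centres. The catalytic subunit mt-Co1 was 7497, 6431 and 6400 in KO and 6198, 6747 and 7144 in WT, a log2 change of 0.016 (SE 0.11) that was negative after scaling by median ratios (-0.013) or by totals without the mitochondrial genes (-0.0039). mt-Co2, the subunit that takes up the electrons of cytochrome c, had values of 7433 ± 936 in KO and 7586 ± 587 in WT, and mt-Co3 was 7910 ± 1090 and 8473 ± 536 (SD, 3 libraries per group). The ATP synthase genes mt-Atp6, part of its proton channel, and mt-Atp8 were 7712 ± 899 and 5893 ± 920 in KO and 8367 ± 848 and 6186 ± 645 in WT. All 5 had overlapping groups. After correction for GC content, which in these genes was 31.9% to 41.1%, the median log2 change of the 13 members was 0.010, with 6 below 0 and 7 above. The largest of these corrected differences below 0 was that of mt-Nd3, at -0.11.

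GC content was related to the differences among the nuclear members as it was among all genes. Across the 63 tested nuclear members, the log2 change between KO and WT correlated with the GC content of the longest transcript (Spearman's rho 0.55), as it did (0.62) across 13385 genes with a GC content. For the difference between KO 1, KO 2, WT 3 and the other libraries, rho was 0.52 across members and 0.72 across genes. These are descriptions across genes that share the 6 libraries. Of the 30 nuclear members under 50% GC, 20 had a lower mean log2 value in KO (median -0.047), and of the 33 with at least 50%, 20 had a higher one (median 0.057). The medians over all genes were -0.057 and 0.12 in the same classes. After the correction the medians of the members were -0.016 and -0.025. The limit of 50% was chosen after the data were seen.

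**Figure D5:**
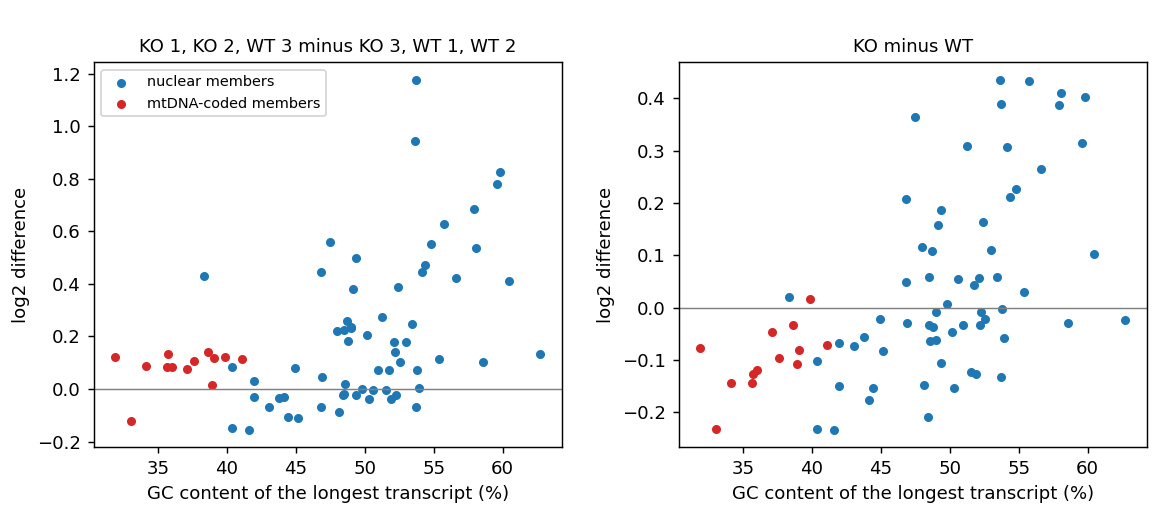
GC content of the longest annotated transcript (x axis, %) against the log2 difference between KO 1, KO 2, WT 3 and KO 3, WT 1, WT 2 (left) and between KO and WT (right), on the log2(value + 1) scale, for 63 nuclear members (blue) and 13 mitochondrially coded members (red). Nuclear members of higher GC content tend to lie higher in each plot (Spearman's rho 0.52 on the left and 0.55 on the right), and the y axes differ in range.

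Nuclear respiratory genes are known for promoters with sites of the factors NRF1, GABP (an ETS factor) and YY1. The promoters of 50 of the 63 tested nuclear members were found in a RefSeq table (build GRCm38.p6), as windows from 250 bases before to 50 after the start. The NRF1 letters (GCGCA, any 1 base, GCGC) were in the windows of 11 of 50 members (22%), against 5.19% of all 27025 genes in the table and 11.8% of the 9300 tested genes found there. CCGGAAG (ETS) was also in 11 of 50 (22%), against 9.93% and 20.5%. AAGATGGC (YY1) was in 7 of 50 (14%), all of complex I, against 3.19% and 5.47%. The GC box GGGCGG was in 21 of 50 (42%), against 38.2% and 70.1%. Matches were counted on either strand, a gene with several windows counted once, and a match of letters is a description, not a binding site. For Cox5a, Ndufa1, Ndufa3, Ndufs7 and Sdhd, bases after the start were not found in an annotated transcript, so their windows are uncertain. Ndufa3 and Ndufs7 are among the members with YY1 letters, and Sdhd is among those with NRF1 and ETS letters.

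The 250 bases before the start are shown for 3 members whose library patterns differ: Sdha, with overlapping groups close in value, Ndufb6, with the KO values all under the WT range, and Uqcr10, with the widest difference between KO 1, KO 2, WT 3 and the rest. Capitals mark the matches to these 4 motifs, and the sequences are from RefSeq, 5′ to 3′ on the strand of the gene. The Sdha stretch is chr13:74350241-74350490 (minus strand), that of Ndufb6 is chr4:40279422-40279671 (minus strand) and that of Uqcr10 is chr11:4704345-4704594 (minus strand). Sdha has 3 NRF1 matches, Ndufb6 has 1 ETS and 2 GC box matches, and Uqcr10 has none of these letters in the window.
Sdha: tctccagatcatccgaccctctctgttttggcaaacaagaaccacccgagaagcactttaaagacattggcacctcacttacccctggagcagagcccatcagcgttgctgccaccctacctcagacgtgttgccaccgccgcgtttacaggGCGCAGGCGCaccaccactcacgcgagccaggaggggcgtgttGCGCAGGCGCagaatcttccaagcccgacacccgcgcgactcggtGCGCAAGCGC
Ndufb6: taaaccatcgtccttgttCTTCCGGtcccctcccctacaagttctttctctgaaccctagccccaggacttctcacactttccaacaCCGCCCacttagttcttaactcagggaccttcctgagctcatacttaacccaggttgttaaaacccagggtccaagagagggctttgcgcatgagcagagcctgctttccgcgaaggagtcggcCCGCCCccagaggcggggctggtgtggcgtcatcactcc
Uqcr10: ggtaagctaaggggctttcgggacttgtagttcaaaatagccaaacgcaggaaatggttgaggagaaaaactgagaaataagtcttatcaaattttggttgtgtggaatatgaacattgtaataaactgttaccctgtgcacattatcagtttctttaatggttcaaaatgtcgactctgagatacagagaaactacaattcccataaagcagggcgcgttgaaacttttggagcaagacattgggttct

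The other genes of the pathway showed no call either. Of 16 tested nuclear genes of the ATP synthase, 0 passed limma in either direction. In KO, 12 had a lower and 4 a higher mean log2 value, where 6463 and 7448 of all 13911 genes tested did. The median of the 16 was -0.058 (-0.091 after GC correction). The 16 include Atpif1, which encodes an inhibitor of the enzyme and not a subunit (log2 change -0.046). Atp5l, a membrane subunit, was 78.2, 70.9 and 69.9 in KO and 81.5, 78.5 and 79.5 in WT, with the KO values all under the WT range by a small margin (log2 change -0.13, SE 0.070, adjusted p 0.481), and a log2 change of -0.033 after GC correction. Atp5j, of the peripheral stalk, was 57.6 ± 2.82 in KO and 63.4 ± 4.01 in WT (SD, 3 libraries per group), with overlapping groups. Its log2 change was -0.14, and -0.17 after GC correction. Among 3 tested electron carriers and subunits outside the rule, 0 passed. Cycs, the cytochrome c gene, was 28.8, 27.5 and 26.8 in KO and 34.4, 30.1 and 32.2 in WT. All KO values of Cycs were lower, with a log2 change of -0.21 (SE 0.074, unadjusted p 0.023, adjusted p 0.469), -0.12 after GC correction. Ndufab1, the acyl carrier protein that is also a subunit of complex I, was 3.32 ± 0.116 in KO and 3.56 ± 0.336 in WT (SD, 3 libraries per group).

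Of 43 tested assembly factors of the complexes, 0 passed. In mean log2 value 18 were higher and 25 lower, where 7448 and 6463 of all 13911 genes tested were. The median of the 43 was -0.043 (-0.033 after GC correction, -0.028 within set A and -0.015 within set B). Ndufaf4, an assembly factor of complex I, was 10.1, 10.8 and 10.2 in KO and 12.7, 13.3 and 12.2 in WT, all KO values lower (log2 change -0.27, SE 0.069, unadjusted p 0.0047, adjusted p 0.469; -0.18 after GC correction). Coa6, which serves copper delivery to complex IV, was 8.01, 7.01 and 7.53 in KO and 9.54, 9.16 and 8.69 in WT, again with all KO values lower (log2 change -0.25, SE 0.078, adjusted p 0.469; -0.25 after GC correction). Among 25 tested genes of mitochondrial genome expression and its regulators, 0 passed, with 16 lower and 9 higher and a median of -0.061, which was -0.0054 after GC correction, 0.0016 within set A and -0.032 within set B. Tfb2m, the transcription factor that opens mitochondrial promoters, was 11.8, 11.5 and 11.6 in KO and 14.0, 13.8 and 12.6 in WT, and Polg, the mitochondrial DNA polymerase, was 4.10, 4.65 and 4.32 in KO and 3.65, 3.52 and 4.09 in WT. All KO values of Tfb2m lay below and all of Polg above the WT values, with an adjusted p of 0.469 and 0.473. Their log2 changes of -0.19 and 0.17 were -0.12 and 0.083 after GC correction.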

How the data were processed

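Gene expression was measured by RNA sequencing in 3 Bicc1 KO and 3 WT libraries. CASAVA 1.82, Bowtie 0.12.7 and the build mm9 are named, with no role, in the submitters' processing notes. The authors deposited 1 signal value per gene and library, in a unit not given in the sources used here, with a lowest value of 0.01 and sums of 674295 to 716255 per library. Depth is unknown. Ensembl identifiers were matched to symbols for 22624 of 24389 genes.

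Differences were tested with limma 3.58.1 (R 4.3.3) on log2(value + 1), for genes with a mean of at least 1, with a variance trend, Benjamini-Hochberg adjustment over 13911 genes and a threshold of 0.05, since the values are not counts. Python 3.11.15 was used for all else. The fit was tested on simulated data. Fold changes on this scale understate those of low genes. GC correction was a loess fit (span 0.3) per library over the 13385 genes with a GC content (GENCODE, GRCm38).

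Members and lists were chosen with earlier results of these data known. Named genes were Bicc1, the mitochondrially coded, complex II and core members, the complex IV isoform groups, the 3 members with the lowest p in each direction in complexes I, III and IV, and the 2 with the lowest p of each list. A member named by this rule is not reported here by itself, though it remains in all counts and medians. Alternatives were other scalings, filters, pseudocount, moderation, threshold, a replicate block, GC correction, a term for the first component and leaving out each library.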

Additional observations from a re-analysis of the deposited data

How the results depend on the processing

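No oxidative phosphorylation member passed the threshold under any of the 19 alternatives, and the lowest adjusted p of a member was 0.132 (Ndufv3, without WT 3, limma). Over all genes, 2 were called, against 1 with no filter, 4 with GC correction, 0 with a replicate block and 1 with GC correction and the block, and 1 to 7 when 1 library was left out. The labels do not say that replicate numbers pair the samples, so the block is given only here. Same-number correlations of the deviations from the group means were -0.22, -0.40 and -0.64. Different-number correlations ranged from -0.25 (KO 1 with WT 2) to 0.57 (KO 3 with WT 2). These values depend on each other, since the deviations within each group of 3 sum to 0. They do not settle whether samples were paired. With the block, the adjusted p of Bicc1 in limma was 0.088. The nuclear and mitochondrial medians moved by less than the spread between replicates (0.10 and 0.15) under every alternative. Each spread is larger than its median in the main fit, so a change of sign can fall within it. The mitochondrial median was 0.010 with GC correction, alone and with the block. The nuclear median was above 0 when KO 2, KO 3, WT 1 or WT 3 was left out. Of 44 named members tested, 27 kept their direction under all alternatives and 17 did not, in 52 of 836 fits. The causes were not tested.

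With GC correction, alone and with the block, log2 changes were 0.013 for Cox7b, 0.052 for mt-Atp8, 0.067 for mt-Co2, 0.018 for mt-Cytb, 0.010 for mt-Nd1, 0.017 for mt-Nd4l, 0.062 for mt-Nd5, -0.020 for Cox7a2l and -0.048 for Sdhb. Cox7a2l was -0.022 with median ratios, -0.0051 with totals, -0.013 with totals without mitochondrial genes and -0.0073 with upper quartiles. mt-Co1 was -0.013 with median ratios and -0.0039 with totals without mitochondrial genes. With the first component as a term, mt-Co1 was -0.028, Sdhb -0.028 and Uqcr10 -0.0039.

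When 1 library was left out, log2 changes ranged from -0.084 to 0.034 for Cox6a1, -0.070 to 0.0091 for Cox6b1, -0.036 to 0.079 for Cox7a2l, -0.11 to 0.029 for Cox8a, -0.073 to 0.034 for Ndufs3, -0.062 to 0.0018 for Sdha, -0.014 to 0.16 for Sdhb and -0.047 to 0.24 for Sdhc. They ranged from -0.20 to 0.012 for mt-Atp8, -0.059 to 0.063 for mt-Co1, -0.14 to 0.026 for mt-Co2, -0.18 to 0.024 for mt-Nd4l and -0.17 to 0.072 for mt-Nd5. A count model was not run, since the values are not counts. Depth is unknown, so counting error is not given.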

Other observations

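The citric acid cycle, which supplies NADH and succinate to complexes I and II, was described by 17 tested genes, Sdh members excluded. They include Pdha1, Pdhb and Dlat of pyruvate dehydrogenase, which is not an enzyme of the cycle itself. The log2 changes of Pdha1, Pdhb and Dlat were -0.13, -0.11 and -0.13. None of the 17 passed limma. By mean log2 value in KO, 12 were lower and 5 higher, where 6463 and 7448 of all 13911 genes tested were. The median change of the 17 was -0.11 (-0.077 after GC correction). At an unadjusted p of 0.05, 0 were higher and 2 lower, where 5.89% and 4.36% of all genes tested were. The median was -0.048 within set A and -0.12 within set B. Dld, the shared dehydrogenase subunit that reoxidises lipoamide, was 43.1, 39.6 and 45.6 in KO and 51.9, 50.7 and 49.0 in WT. All KO values of Dld lay below all WT values (log2 change -0.24, SE 0.074, adjusted p 0.469; -0.15 after GC correction). Idh3a, a subunit of the NAD-dependent isocitrate dehydrogenase, was 24.1, 24.6 and 23.8 in KO and 29.3, 26.8 and 26.4 in WT, again with all KO values lower (log2 change -0.18, SE 0.068, adjusted p 0.469; -0.16 after GC correction).

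Of the 2 mitochondrial ribosomal RNAs, 0 passed limma in either direction, and 0 had an unadjusted p under 0.05. mt-Rnr2, the large ribosomal RNA, was 429, 382 and 403 in KO and 378, 373 and 359 in WT, with all KO values higher by a small margin between KO 2 and WT 1 (log2 change 0.13, SE 0.074, adjusted p 0.489; 0.24 after GC correction). mt-Rnr1, the small ribosomal RNA, was 389, 325 and 366 in KO and 342, 357 and 325 in WT, with overlapping groups.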
